A study of Mus musculus with 50 samples.

Results

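The genes of hepatic iron handling were followed in the livers and liver tumours of C3H/He mice. Members were the rows of the count table whose symbol was Hamp, Hamp2, Bmp6, Hfe, Tfr2, Tfrc, Trf, Slc40a1, Fth1 or Ftl1, which are 10 of the 45792 rows. All 10 passed the filter on low counts in each comparison. The mice were fed a control diet or the ALIOS diet, an American lifestyle diet rich in trans fat with fructose in the drinking water, and tissue was taken at 48 weeks. The non-tumour liver samples, here called livers, numbered 12 for the control diet (N1 to N12) and 11 for ALIOS (N13 to N23), none labelled with a carcinogen. They are samples of non-tumour tissue, and the paper reports tumours in mice of this set. There were 13 tumours on the ALIOS diet without a carcinogen, here called spontaneous, 1 tumour on the control diet (T7), 8 tumours on the ALIOS diet with diethylnitrosamine (DEN), a liver carcinogen, and 5 tumours on the control diet with DEN. The study used males of more than 1 C3H substrain, and no label assigns a library to a substrain, a cage or a sequencing lane, or a tumour to the liver of the same mouse. P-values therefore measure only the spread between these libraries. No non-tumour liver sample carries the DEN label, so DEN and tumour cannot be told apart in the comparisons of DEN tumours with livers.

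Of the 50 libraries, tumour T1 was left out, and 49 were used. T1 is labelled as a liver tumour, but the kidney androgen-regulated gene Kap stood at 35350 CPM (reads of a gene in every 1000000 counted) and albumin at 37.9 CPM there, against at least 47635 CPM for albumin in the ALIOS livers. Between 23798251 and 45751398 reads were counted per library. Of the 8 hepatocyte markers checked, none was at 0 in a whole group, and their summed level ran from 75140 to 142200 CPM in the livers and from 76050 to 230300 CPM in the tumours, with albumin the largest part. The markers did not move together: in spontaneous tumours against ALIOS livers Alb, Apoa1 and Serpina1a were higher, and Ttr, Tat, Cyp2e1 and Pck1 were lower. Levels below are CPM scaled by TMM (the trimmed mean method of edgeR), and errors are SD over libraries. Because these are bulk samples, fewer cells of a type and less RNA per cell cannot be told apart.

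The body has no regulated route for excreting iron, so iron balance is set by how much enters the plasma. The liver governs this through hepcidin, a peptide hormone of hepatocytes that makes cells degrade ferroportin, the only known exporter of iron. Hepatocytes adjust hepcidin to iron through BMP6 from sinusoidal endothelial cells, which signals through SMAD proteins, and through HFE and transferrin receptor 2, which sense iron bound to transferrin. Inflammation acts on hepcidin through IL6 and STAT3. Hamp encodes hepcidin, and Hamp2 is a mouse paralogue of less certain function. Trf encodes transferrin, the plasma carrier of iron, Tfrc the receptor that takes it up, Slc40a1 ferroportin, and Fth1 and Ftl1 the heavy and light chains of ferritin, in which cells store iron.

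Hamp (ENSMUSG00000050440.7) lies on the minus strand of chromosome 7 at 30942368 to 30944032 in GRCm38, and Hamp2 (ENSMUSG00000056978.6) on the same strand at 30922372 to 30924681. The 250 bases before the RefSeq start of each gene are shown, because the levels of these neighbouring paralogues are compared below. They come from RefSeq (GRCm38.p6, minus strand, chr7:30944030-30944279 for Hamp and chr7:30924182-30924431 for Hamp2). Gencode starts differ from these, so that the last 3 bases of the Hamp stretch are exonic in Gencode, and the Hamp2 stretch lies inside the span of a longer Hamp2 transcript, in an intron. Capitals mark matches, on either strand, to the BMP response element (letters GGCGCC) and to a STAT site (letters TTCNNNGAA).
Hamp: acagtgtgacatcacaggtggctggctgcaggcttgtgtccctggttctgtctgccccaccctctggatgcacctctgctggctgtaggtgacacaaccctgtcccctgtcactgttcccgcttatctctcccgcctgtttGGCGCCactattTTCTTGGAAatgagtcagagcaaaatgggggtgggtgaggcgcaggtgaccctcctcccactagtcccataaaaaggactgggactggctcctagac
Hamp2: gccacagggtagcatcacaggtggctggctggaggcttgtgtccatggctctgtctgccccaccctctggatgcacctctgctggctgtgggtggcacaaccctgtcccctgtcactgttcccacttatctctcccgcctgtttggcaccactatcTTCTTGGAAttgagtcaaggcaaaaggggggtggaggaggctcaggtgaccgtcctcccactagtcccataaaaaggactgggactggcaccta
The stretches aligned over 247 bases, of which 91.9% were the same. Of the 20 substitutions, 1 fell in the BMP response element, G145A, with positions counted from 1 at the 5′ end of the Hamp stretch and the base of Hamp first. The STAT site held none. The letters of the BMP element stand in the same window of 9.59% of 32851 promoters and those of the STAT site in 7.02%. A promoter was found for 8 of the 10 members, and among the others the BMP letters occurred in 1 promoter of Tfrc. The mature transcripts of Hamp and Hamp2 were 94.6% the same over 410 aligned bases with no identical run longer than 87 bases. No window of 100 bases, the length of the reads, was shared by the 2 genes or with another gene.

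**Figure D1:**
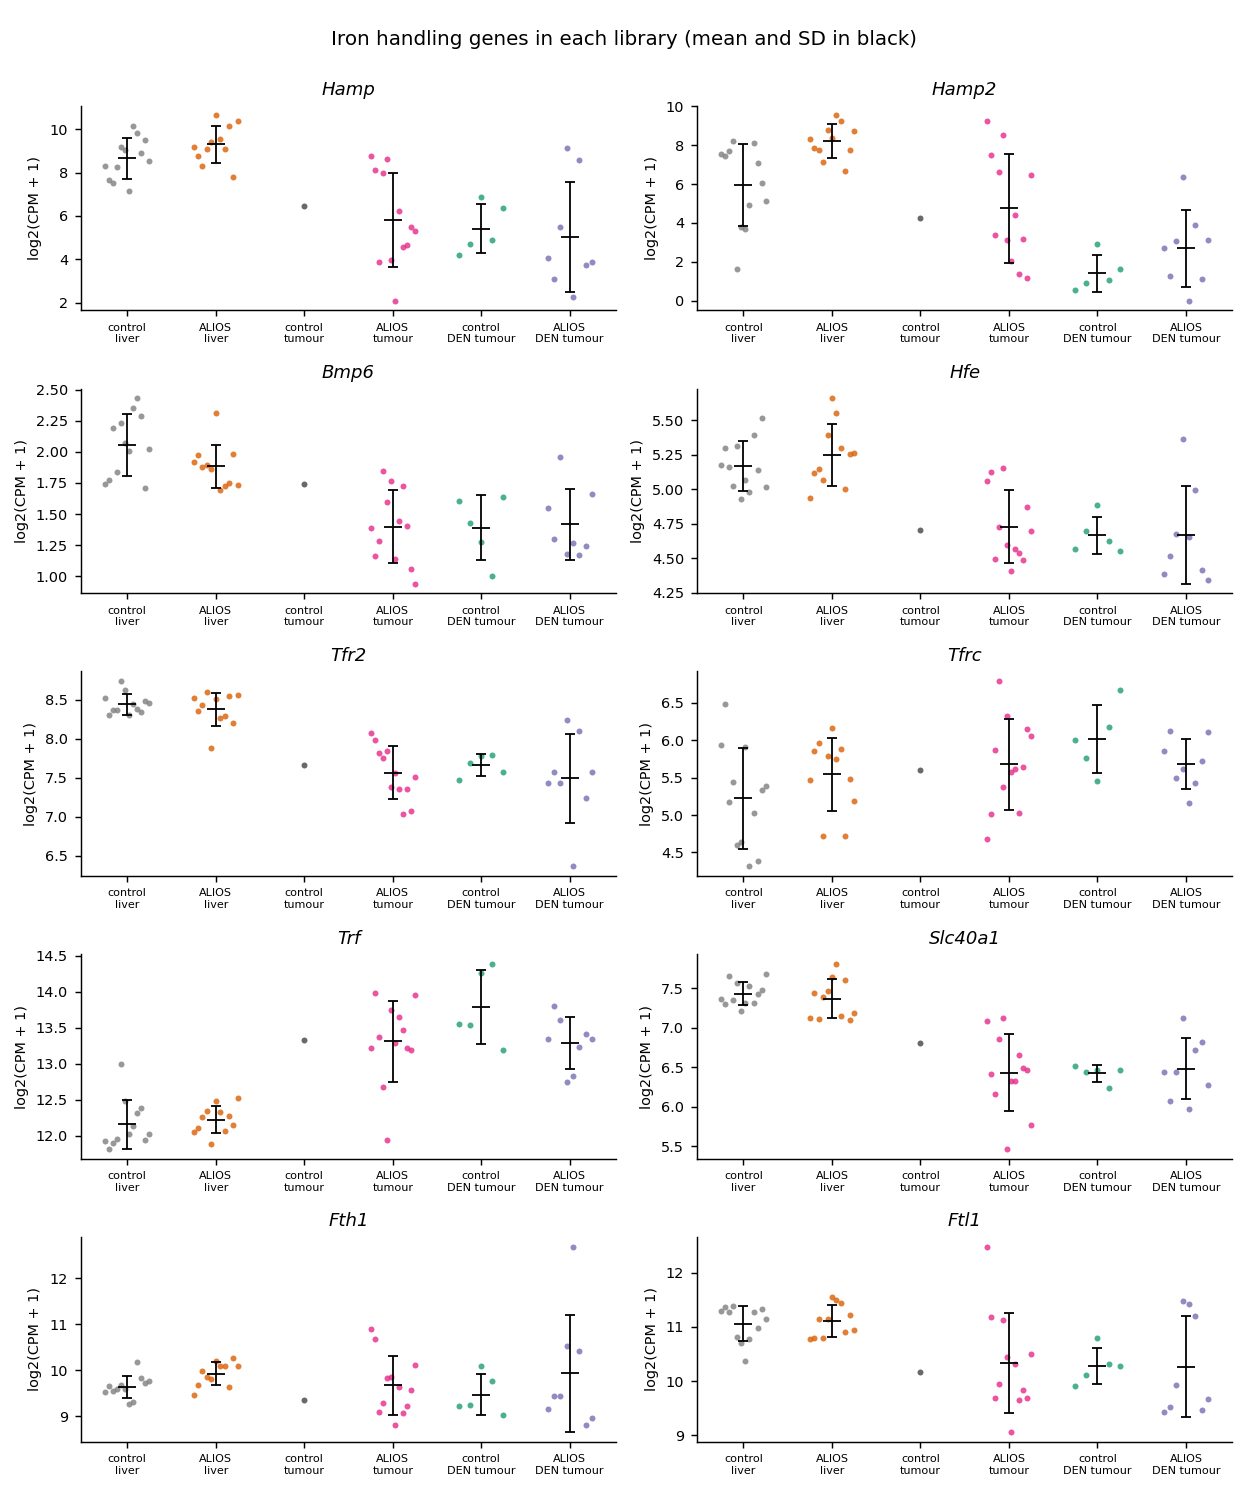
Level of each of the 10 genes as log2(CPM + 1) in 49 libraries by group, with 1 point per library and the mean and SD of these log2 values in black. Hamp, Tfr2, Slc40a1, Hfe and Bmp6 sit lower in the tumours than in the livers, Trf sits higher, and Fth1 of 1 ALIOS DEN tumour stands at 6594 CPM.

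Levels in the livers differed widely between the members. They are given per kilobase of exon, with all annotated exons of a gene merged. This length was 410 bases for Hamp, 3469 for Fth1 and 9000 for Slc40a1, and it can exceed that of the transcript present. The order of the genes depends on it and is approximate. In the control diet livers ferritin light chain Ftl1 stood at 1631 ± 340.4 CPM per kb (SD, n = 12). Transferrin Trf stood at 1418 ± 387.6 and Hamp at 1188 ± 747. Fth1 followed at 233 ± 40.6 and Hamp2 at 204 ± 183. The first 3 lay within the spread of each other, as did Fth1 and Hamp2. Receptor Tfr2, at 80.3 ± 7.77 CPM per kb, stood above ferroportin Slc40a1 at 19.2 ± 2.02. Hfe stood at 9.85 ± 1.30, Tfrc at 6.52 ± 3.32 and Bmp6 at 0.823 ± 0.186.

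The question of what the ALIOS diet does to the non-tumour liver was asked first. None of the 10 members passed the test, where 11.2% of 13723 genes did, 6.73% being higher and 4.51% lower on the ALIOS diet. The median log2 fold change of the members was 0.05, beside -0.02 over all genes tested. The differences closest to the threshold were those of Hamp2 and Fth1.

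Hamp2 was the most variable member in the livers. In the control diet livers its lowest level was 2.15 CPM in N5, its median 101 and its highest 292 in N4, and N6, N7, N8, N11 and N12 also stood below 66. The ALIOS livers ranged from 100.4 to 749 CPM with a median of 318, so the low levels occurred on the control diet, although 6 of 11 ALIOS livers were above all control diet livers and 5 were not. The log2 fold change was 1.51 ± 0.56 (SE, edgeR adjusted p = 0.0768). DESeq2, which called 15.7% of the genes, called Hamp2 (adjusted p = 0.0448) and Fth1 (adjusted p = 0.0469), and without library N9 edgeR called both (adjusted p = 0.0454 for Hamp2 and 0.0179 for Fth1).

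Hamp ranged from 139.5 to 1130.4 CPM in the control diet livers, with a median of 424, and from 218 to 1599 CPM in the ALIOS livers, with a median of 577. The ranges overlapped over most of their length. The log2 fold change was 0.57 ± 0.34 (SE, edgeR adjusted p = 0.275). Fth1 was 807 ± 141 CPM in the control diet livers (n = 12) and 986 ± 169 CPM in the ALIOS livers (n = 11), and 10 of 11 ALIOS livers were above the control diet median (log2 fold change 0.27 ± 0.10, edgeR adjusted p = 0.0779). Without library N13 Fth1 was called (edgeR adjusted p = 0.0346). Ligand Bmp6 had 63 to 135 counts per liver and a log2 fold change of -0.26 ± 0.12 (edgeR adjusted p = 0.156). Tfr2, Slc40a1, Hfe, Trf and Ftl1 had log2 fold changes between -0.08 and 0.07, and Tfrc one of 0.22 ± 0.23.

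In the tumours Hamp, Tfr2, Slc40a1, Hfe and Bmp6 were lower and Trf was higher in all 3 comparisons with liver, and Hamp2 was lower in the DEN tumours. Of the 10 members, 5 were lower and 1 higher in spontaneous tumours than in livers on the ALIOS diet, where 52.8% of 14183 genes were called, 25.9% lower and 26.9% higher. In the DEN tumours of the ALIOS diet 6 were lower and 1 higher, where 47.5% of 14434 genes were called, 19.8% lower and 27.7% higher. In the DEN tumours of the control diet 7 were lower and 2 higher, where 51.7% of 14731 genes were called, 24.4% lower and 27.3% higher. The members' median log2 fold changes were -0.60, -0.57 and -0.74, beside 0.01, 0.08 and 0.03 over all genes tested. The first 2 comparisons share the 11 ALIOS livers, so their likeness is not independent.

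**Figure D2:**
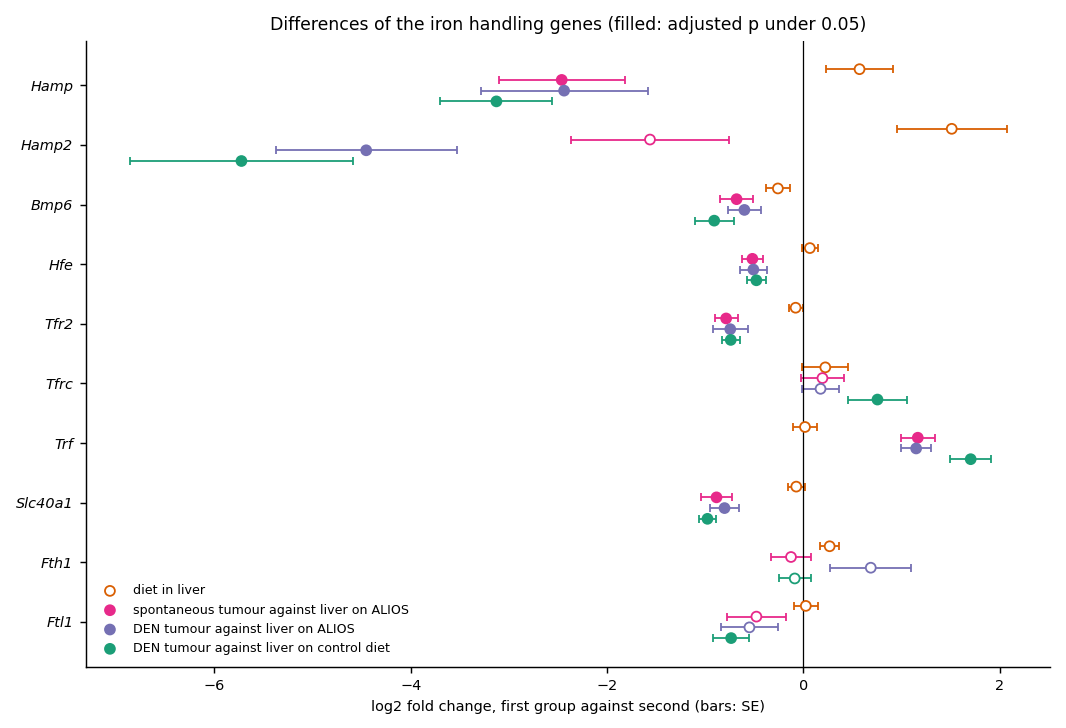
Log2 fold change (points) and SE (bars) of each gene in 4 comparisons, with filled points where the edgeR adjusted p is under 0.05. Hamp2 in control DEN tumours has the lowest value, -5.73, and Trf is higher in each of the 3 comparisons of tumour with liver.

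Hamp, the hepcidin gene, was lower in each kind of tumour. Spontaneous tumours held 3.29 CPM at the lowest, in T9, 41.3 at the median and 433 at the highest, in T2, against 218 to 1599 CPM in the ALIOS livers. Tumours T2, T3, T5 and T6 stood between 255 and 433 CPM and reached into the range of the livers, and the other 8 lay below every ALIOS liver. Hamp fell by 2.46 on the log2 scale (SE 0.64, edgeR adjusted p = 0.00266). The ALIOS DEN tumours were likewise spread, with T23 at 563 and T25 at 376 CPM and the other 6 between 3.85 and 44.2 CPM. There the log2 fold change was -2.44 ± 0.85 (SE, edgeR adjusted p = 0.0240). In the control DEN tumours the levels were 17.7, 25.1, 116, 29.2 and 82.2 CPM in T17 to T21, all below the lowest control diet liver at 139.5 CPM, and Hamp fell by 3.13 (SE 0.57, edgeR adjusted p = 0.000143). Tumour T7, on the control diet without DEN, stood at 87.7 CPM and has no replicate.

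Hamp2 was lower still in DEN tumours. It was 2.19 ± 2.49 CPM in the control DEN tumours (n = 5), with 14 to 201 counts per library, where the control diet livers held 119 ± 107 CPM (n = 12), and it fell by 5.73 on the log2 scale (SE 1.14, edgeR adjusted p = 0.000330). The range of the control diet livers starts at 2.15 CPM, and 4 of the 5 tumours lay below it. The ALIOS DEN tumours held between 0 and 82.6 CPM, all 8 below the lowest ALIOS liver at 100.4 CPM, and Hamp2 fell by 4.45 (SE 0.92, edgeR adjusted p = 0.000623). Tumour T24 had 0 counts of Hamp2, which allows up to 0.0533 CPM, a limit that covers counting error only. The spontaneous tumours ranged from 1.27 CPM in T13 to 609 CPM in T2, with 9 of 12 below every ALIOS liver, and the log2 fold change of -1.56 ± 0.80 was not called (edgeR adjusted p = 0.105). Without T2 it was -2.28 and called (adjusted p = 0.0164).

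The share of Hamp2 among the counts of both hepcidin genes compares the paralogues within a library. It was 21.8 ± 19.9% in the control diet livers (SD, n = 12), from 0.368% to 53.6%, and 34.0 ± 14.9% in the ALIOS livers (n = 11), from 8.26% to 53.2%. The spontaneous tumours held 35.1 ± 19.8% (n = 12), the ALIOS DEN tumours 14.7 ± 11.8% (n = 8), the control DEN tumours 3.42 ± 1.15% (n = 5) and T7 17.3%. In T24 the share was 0 of 217 counts, which allows up to 1.38%.

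Of 6 differences in this share, 4 passed a 2-sided exact permutation test. The share was 19.3 percentage points lower in ALIOS DEN tumours than in ALIOS livers (p = 0.00876, adjusted p = 0.0436). It was 20.4 points lower in ALIOS DEN tumours than in spontaneous tumours (exact permutation test, p = 0.0162, adjusted p = 0.0436), with 8 of 8 below the spontaneous median. In control DEN tumours it was 18.4 points lower than in control diet livers (exact permutation test, p = 0.0291, adjusted p = 0.0436). Within DEN tumours it was 11.3 points higher on the ALIOS diet (exact permutation test, p = 0.0264, adjusted p = 0.0436), in 7 of 8 above the control diet median. The differences by diet in liver (12.1 points, permutation test, adjusted p = 0.136) and between spontaneous tumours and livers on ALIOS (1.16 points, permutation test, adjusted p = 0.878) did not pass. These comparisons share groups. With medians in place of means, none of the 6 passed (permutation test, lowest adjusted p = 0.0870).

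**Figure D3:**
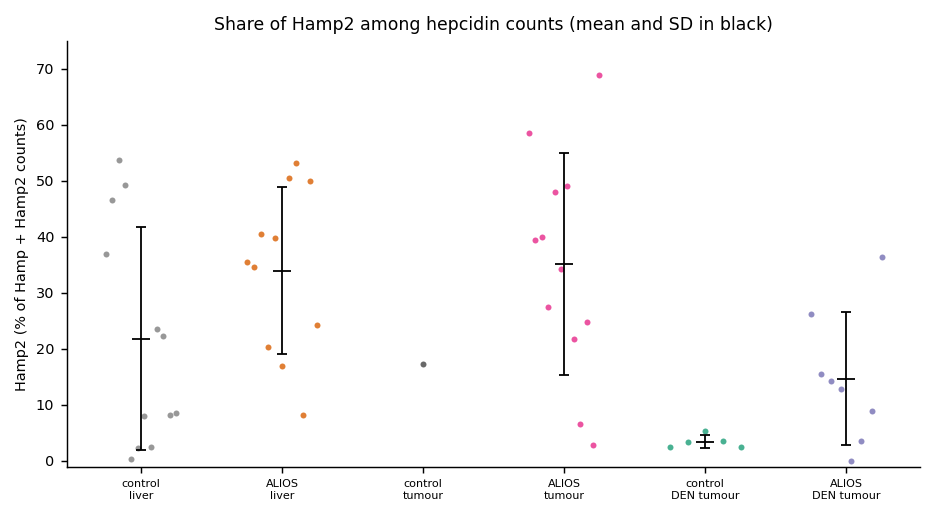
Counts of Hamp2 as a percent of Hamp plus Hamp2 counts in each of 49 libraries by group, with the mean and SD in black. The 5 control DEN tumours lie between 2.44% and 5.31%, and the control diet livers spread from 0.368% to 53.6%.

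The iron sensors of the hepatocyte surface were lower in tumours. Tfr2 was 335 ± 45.9 CPM in the ALIOS livers (n = 11) and 193 ± 44.9 CPM in the spontaneous tumours (n = 12), of which 10 lay below every ALIOS liver, and it fell by 0.79 on the log2 scale (SE 0.12, edgeR adjusted p = 8.8e-06). In the control DEN tumours it was 176, 205, 219, 221 and 190 CPM in T17 to T21, against 315 to 427 CPM in the control diet livers, with no overlap (log2 fold change -0.74 ± 0.09, edgeR adjusted p = 2.2e-06). The ALIOS DEN tumours ran from 81.5 CPM in T24 to 301 CPM in T23 (log2 fold change -0.74 ± 0.18, edgeR adjusted p = 0.00211). Hfe, whose product binds the transferrin receptors, fell by 0.52, 0.51 and 0.48 in the 3 comparisons in the same order as above (spontaneous, ALIOS DEN and control DEN tumours; edgeR adjusted p = 0.000252, 0.00450 and 0.000395). The control DEN tumours held 22.5 to 28.6 CPM of Hfe and the control diet livers 29.4 to 44.7 CPM.

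Bmp6, the ligand that tells hepatocytes of iron, had few counts, from 29 to 135 per library. It was 2.72 ± 0.485 CPM in the ALIOS livers (n = 11), 1.68 ± 0.548 in the spontaneous tumours (n = 12), 1.72 ± 0.577 in the ALIOS DEN tumours (n = 8) and 1.65 ± 0.457 in the control DEN tumours (n = 5), where the control diet livers held 3.21 ± 0.723 (n = 12). It fell by 0.68, 0.60 and 0.91 in the 3 comparisons (edgeR adjusted p = 0.00137, 0.00700 and 0.000776). Its exons overlap 224 bases of Txndc5 on the opposite strand, and whether counting used the strand is not given in the sources used here. The summed level of 8 markers of endothelial cells, which make BMP6, ran from 182 to 298 CPM in the livers and from 117 to 356 CPM in the tumours. The markers did not move together, with 2, 2 and 3 higher and 1, 1 and 3 lower in the 3 comparisons. Pecam1 and Lyve1 were higher in each, and Clec4g was lower in each (log2 fold changes -0.82, -0.95 and -1.02). The part of these cells in the Bmp6 result was not tested.

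Ferroportin was lower in tumours by a similar factor. Slc40a1 held 147 to 204 CPM in the control diet livers and 90.8, 85.9, 87.0, 74.4 and 87.4 CPM in control DEN tumours T17 to T21, with no overlap, and fell by 0.98 on the log2 scale (SE 0.09, edgeR adjusted p = 4.3e-08). The ALIOS livers held 166 ± 29.7 CPM (n = 11), the spontaneous tumours 89.6 ± 29.0 (n = 12) and the ALIOS DEN tumours 91.4 ± 25.5 (n = 8), with falls of 0.88 and 0.80 (edgeR adjusted p = 6.6e-05 and 0.000216). In the spontaneous tumours 11 of 12 lay below every ALIOS liver. Macrophages export iron through ferroportin as well. Of 8 macrophage markers, 7, 2 and 5 were lower in the 3 comparisons and none was higher. Their summed level was 244 to 912 CPM in the ALIOS livers, 31.0 to 459 CPM in the spontaneous tumours and 28.6 to 558 CPM in the ALIOS DEN tumours, with no marker at 0 in a whole group, and 180 to 392 CPM in the control diet livers against 43.4 to 177 CPM in the control DEN tumours. Their part in the Slc40a1 result was not tested. In the diet comparison of livers 7 of the 8 were higher on ALIOS, where 6.73% of all genes were higher. Slc40a1 had a log2 fold change of -0.07 ± 0.08 there.

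Transferrin was the member that rose in each kind of tumour. Trf held 3782 to 5898 CPM in the ALIOS livers and 6870 to 14258 CPM in the ALIOS DEN tumours, with no overlap (log2 fold change 1.15 ± 0.15, edgeR adjusted p = 5.9e-06). Of the spontaneous tumours 11 of 12 were above every ALIOS liver, up to 16146 CPM in T3, and T6 stood at 3922 CPM (1.17 ± 0.17, edgeR adjusted p = 8.9e-06). The control DEN tumours held 12006, 11885, 19707, 21458 and 9339 CPM in T17 to T21, where the control diet livers ran from 3600 to 8195 CPM (1.71 ± 0.21, edgeR adjusted p = 1.3e-06). Among other proteins that hepatocytes secrete, albumin was higher in spontaneous tumours (log2 fold change 0.79, edgeR adjusted p = 0.00247) and transthyretin, Ttr, lower (-0.47, edgeR adjusted p = 0.0188). Of the exonic bases of Trf, 2108 also belong to Gm20425 on the same strand, with which 53.2% of its 100-base windows are shared. Reads there could be dropped by the counting, and how many was not measured. The highest count of Gm20425 was 78.

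Tfrc, the receptor that carries transferrin into the cell and whose mRNA is stabilised when iron is scarce, was called only in control DEN tumours. It held 43.0 to 101 CPM in the control DEN tumours, all 5 above the control diet median of 37.3 CPM and 1 above all 12 livers, with a log2 fold change of 0.76 ± 0.30 (edgeR adjusted p = 0.0438). The call was lost without T17, T20 or T21, with adjusted p from 0.0663 to 0.186, and without the filter on low counts (adjusted p = 0.0574). On the ALIOS diet the log2 fold changes were 0.19 ± 0.22 in spontaneous and 0.18 ± 0.19 in DEN tumours (edgeR adjusted p = 0.471 and 0.455).

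The ferritin chains, the store of iron in cells, differed between tumours more than between groups. Ftl1 was called lower in the control DEN tumours, at 955, 1103, 1786, 1280 and 1245 CPM in T17 to T21 against 1324 to 2692 CPM in the control diet livers (log2 fold change -0.74 ± 0.18, edgeR adjusted p = 0.00224). With all groups in 1 fit its adjusted p was 0.0817. In spontaneous tumours 9 of 12 lay below every ALIOS liver, but T2 held 5736 CPM, and the log2 fold change of -0.48 ± 0.30 was not called (edgeR adjusted p = 0.187). Without T2 it was -0.86 (edgeR adjusted p = 0.00143). In ALIOS DEN tumours 5 of 8 lay between 686 and 978 CPM and the other 3, T23, T24 and T25, between 2355 and 2852 CPM, with a log2 fold change of -0.55 ± 0.29 (edgeR adjusted p = 0.123) that was -0.73 and called without T24 (adjusted p = 0.0375). Ftl1 shares 34.4% of its 100-base windows with copies such as Ftl1-ps1 and Ftl2-ps, so its counts are uncertain to that extent.

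Fth1 was not called by edgeR in any comparison. The spontaneous tumours held 449 to 1903 CPM and the ALIOS livers 708 to 1237 CPM (log2 fold change -0.13 ± 0.21, edgeR adjusted p = 0.634). The control DEN tumours held 520 to 1087 CPM and the control diet livers 615 to 1155 CPM. Among the ALIOS DEN tumours T24 held 6594 CPM and the other 7 between 449.8 and 1478 CPM, so that the log2 fold change of 0.69 ± 0.41 against the ALIOS livers (edgeR adjusted p = 0.178) became -0.20 without T24 (adjusted p = 0.455). T24 also had the lowest Tfr2 of all tumours.

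**Figure D4:**
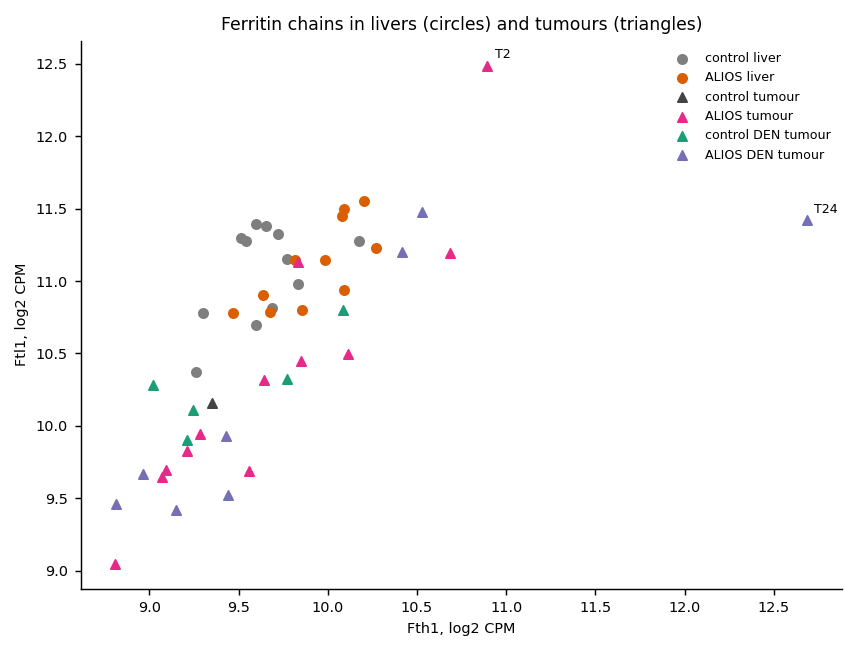
Ftl1 against Fth1, both as log2 CPM, in 23 livers (circles) and 26 tumours (triangles). T24 stands apart at 6594 CPM of Fth1 and 2738 CPM of Ftl1, and T2 has the highest Ftl1, 5736 CPM.

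A few tumours stood apart from the others of their group in several members. T2, T3 and T6, which had Hamp at 433, 273 and 394 CPM, also held the 3 highest levels of Ftl1 among the spontaneous tumours, at 5736, 2339 and 2241 CPM, and Hfe at 32.4, 33.9 and 34.5 CPM. They were not like the livers in every member, since Ftl1 of T2, Fth1 of T2 and T3, at 1903 and 1644 CPM, and Trf of T2 and T3 lay above every ALIOS liver. Tumour T5, whose Hamp of 255 CPM also reached into the range of the livers, differed from them. It held 984 CPM of Ftl1 and 25.45 CPM of Hfe. T23 and T25, with the highest Hamp among the ALIOS DEN tumours, had the highest Tfr2 there, 301 and 273 CPM. Alpha-fetoprotein (Afp), a fetal liver protein looked up after the values were seen, was 3.49 CPM in T2, 4.95 in T6 and 220 in T3, and 19.2 CPM in T23 and 687 in T25, where all livers held at most 1.62 CPM. The macrophage sum was 459, 366 and 416 CPM in T2, T3 and T6, the highest of the spontaneous tumours, and 231 CPM in T5. It was 558 and 312 CPM in T23 and T25. The part of non-tumour liver in these tumour samples was not tested. In the paper's clustering of livers and tumours without DEN, T6 was the only tumour grouped with the non-tumour samples. T6 was kept among the spontaneous tumours here. Leaving out T2, T3 and T6 together was not tested.

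Between kinds of tumour no member was called. In DEN against spontaneous tumours on the ALIOS diet 0% of 14845 genes were called by edgeR, with 1079 at an unadjusted p under 0.05 and 64 called by DESeq2. Hamp2 had a log2 fold change of -2.95 ± 1.27 (edgeR adjusted p = 0.580), Fth1 one of 0.77 ± 0.45 and Hamp one of -0.04 ± 0.97. Between diets in DEN tumours 0.0134% of 14944 genes were called, namely Sik1 and Nmrk1, which were named after their values were seen. Hamp2 stood 2.78 ± 1.31 higher on the log2 scale and Hamp 1.26 ± 1.17 on the ALIOS diet (edgeR adjusted p = 0.593 and 0.868). These standard errors leave room for differences of several fold in either hepcidin gene.

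The interaction, the effect of DEN tumour on the ALIOS diet minus that on the control diet, was called for 2.27% of 15606 genes and for no member. Trf came closest, with -0.55 ± 0.25 (edgeR adjusted p = 0.258), followed by Tfrc at -0.58 ± 0.36 (adjusted p = 0.441) and Fth1 at 0.79 ± 0.50 (adjusted p = 0.446). The call of Tfrc on the control diet and its lack on the ALIOS diet are therefore not shown to differ.

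The other genes of hepcidin control moved both ways. Of 28 that were tested among 33 listed, 7 were higher and 7 lower in spontaneous tumours, 7 and 6 in ALIOS DEN tumours, and 8 and 7 in control DEN tumours, each close to the share over all genes in that direction. Inhbb, which encodes the activin B subunit, rose by 3.45 ± 0.38, 4.52 ± 0.44 and 3.28 ± 0.30 on the log2 scale (edgeR adjusted p = 2.7e-07, 2.3e-07 and 3.5e-08). Smad9, a BMP-responsive SMAD, fell by 2.44, 2.68 and 3.06 (edgeR adjusted p = 0.000640, 0.000256 and 1.1e-05), and Il6ra, the IL6 receptor, fell by 0.86, 0.86 and 0.78 (edgeR adjusted p = 0.00147, 0.0138 and 0.00437). Fgl1, a liver protein that counters BMP signals to hepcidin, was 374 CPM in spontaneous tumours and 643 CPM in ALIOS livers on average, and fell by 0.77 (edgeR adjusted p = 0.0393). In the livers, diet was followed by 1 higher and 2 lower genes among the 28 tested of this list. Over all genes tested there, 6.73% were higher and 4.51% lower. Id1 rose by 1.44 ± 0.29 on the ALIOS diet, and the receptor Acvr1 and its effector Smad5 fell by 0.28 and 0.24 (edgeR adjusted p = 0.00438, 0.0185 and 0.0187).

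Id1, a transcript widely used as a readout of BMP signalling to SMAD proteins, moved opposite to Hamp in tumours. Control diet livers held 0.874 to 3.90 CPM of Id1, with a median of 1.48, ALIOS livers 2.28 to 10.6 CPM, with a median of 5.10, spontaneous tumours 4.99 to 32.1 CPM and control DEN tumours 10.4 to 24.7 CPM. Control DEN tumours did not overlap with control diet livers, and Id1 rose there by 3.45 ± 0.27 (edgeR adjusted p = 5.2e-09), while Hamp fell by 3.13. In both ALIOS comparisons it rose by 1.69 (edgeR adjusted p = 6.4e-05 and 0.000191). The interaction of Id1 was -1.75 ± 0.45 (edgeR adjusted p = 0.0312). Smad7, another SMAD target, went the way of Hamp in spontaneous tumours, where it fell by 0.48 (edgeR adjusted p = 0.0188), and had log2 fold changes of -0.28 and -0.29 in the ALIOS and control DEN tumours (edgeR adjusted p = 0.218 and 0.140).

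Within the 23 livers Id1 and Hamp varied together. Pearson's r was 0.70 and Spearman's rho 0.69 (permutation tests, adjusted p = 0.00135 and 0.0021, over 10 pairs), and r was 0.66 without the 2 livers farthest from the median of Id1. The relation held within each diet, with r of 0.71 on the control diet (n = 12) and 0.70 on the ALIOS diet (n = 11). Smad7, a SMAD-induced inhibitor of the pathway, had r of 0.70 and rho of 0.72 with Hamp (permutation tests, adjusted p = 0.00135 and 0.0021), r of 0.64 without the 2 farthest livers, and r of 0.52 and 0.81 within the control and ALIOS diets. Bmp6 itself had r of 0.12 and rho of 0.00 with Hamp (permutation tests, adjusted p = 0.655 and 0.998). Within the control and ALIOS diets this pair had r of 0.44 and 0.05, and rho of 0.46 and -0.24, which were not tested. Socs3, the target of STAT3, had r of -0.07 and rho of -0.12 with Hamp (adjusted p = 0.746 and 0.637 by permutation).

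**Figure D5:**
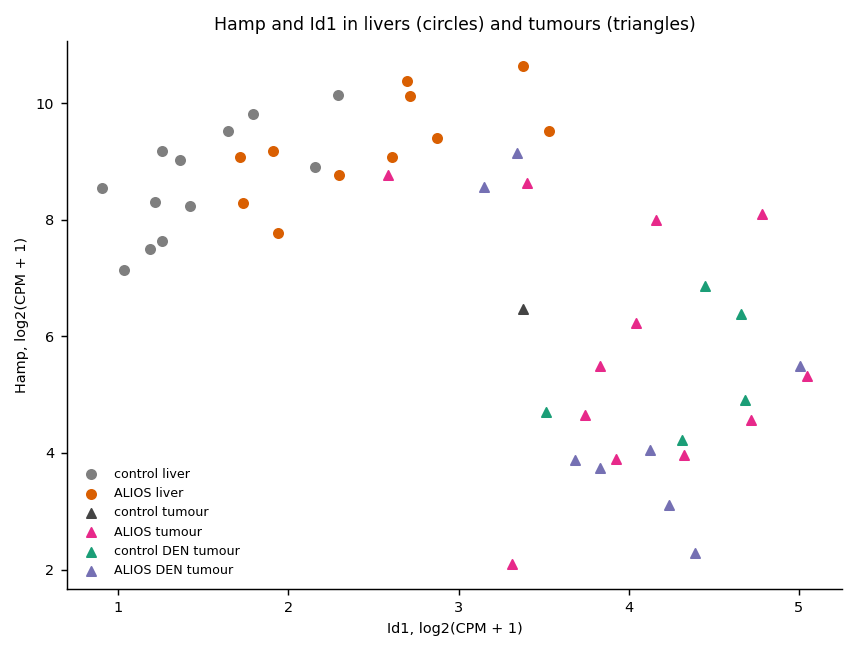
Hamp against Id1, both as log2(CPM + 1), in 23 livers (circles) and 26 tumours (triangles). In the livers Hamp is higher where Id1 is higher, with r of 0.70, and most tumours lie to the right of and below the livers.

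The ferritin chains had r of 0.56 and rho of 0.50 across the livers (permutation tests, adjusted p = 0.0170 and 0.0544), 0.51 without the 2 livers farthest from the median of Fth1, and r of 0.50 and 0.75 within the diets. Hamp2 and Hamp had r of 0.14 and rho of 0.23 (adjusted p = 0.655 and 0.411 by permutation test). Tfrc had r of -0.34 with Hamp and -0.45 with Bmp6 (permutation tests, adjusted p = 0.219 and 0.0813). The pair of Tfrc and Bmp6 had r of -0.75 among control diet livers, but 0.39 among ALIOS livers. Tfrc and Hamp had r of -0.70 among control diet livers and -0.13 among ALIOS livers. These values within diets were not tested. Tfr2 with Hamp and Bmp6 with Id1 had r of 0.28 and -0.12 (permutation tests, adjusted p = 0.339 and 0.655). Within the control and ALIOS diets r was 0.44 and 0.34 for Tfr2 with Hamp, and 0.46 and -0.03 for Bmp6 with Id1. Among 13722 genes tested, those ranked most like Hamp over the 23 livers were Smad7, Mmrn2, Id1, Xrcc4 and Tmco1, with rho from 0.68 to 0.72, given as a description.

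Heme genes were mostly lower in tumours. Of 19 tested, 15, 12 and 13 were lower and 2, 2 and 1 higher in spontaneous, ALIOS DEN and control DEN tumours, where 25.9, 19.8 and 24.4% of all genes were lower and 26.9, 27.7 and 27.3% higher. Their median log2 fold changes were -0.51, -0.45 and -0.52. Alas1, the rate-limiting enzyme of heme synthesis in the liver, fell by 1.66, 2.03 and 1.82 in the same order (edgeR adjusted p = 1.9e-05, 3.5e-05 and 0.00500). On the ALIOS diet it went from 445 CPM in the livers to 140 and 106 CPM. Cpox, a later enzyme of the route, fell by 1.39, 1.08 and 1.87 (edgeR adjusted p = 5.5e-06, 9.2e-06 and 5.2e-09). Slc48a1, which moves heme out of lysosomes, rose by 1.21, 1.54 and 1.87 (edgeR adjusted p = 5.6e-06, 3.9e-07 and 6.1e-12). Alas2, the erythroid form, and Cd163, the macrophage receptor of haemoglobin bound to haptoglobin, also fell in each kind of tumour. In spontaneous tumours they fell by 2.05 and 2.27 (edgeR adjusted p = 7.9e-05 and 0.00219). The summed level of 6 erythroid markers, which include Alas2, was 106 to 217 CPM in the ALIOS livers and 22.4 to 304 CPM in the spontaneous tumours. Alas2 alone held 105 CPM on average in the ALIOS livers, and Hba-a2 was at 0 in all livers. Marker Klf1 also fell in each kind of tumour, but Hba-a1 had log2 fold changes of 0.88, 1.40 and 1.16 (edgeR adjusted p = 0.0958, 0.0169 and 0.00589). The part of erythroid cells was not tested. Slc48a1 was the 1 heme gene of 19 called by diet in the livers, with a rise of 0.18, where 11.2% of all genes were called.

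Of the genes of iron uptake and iron regulatory proteins, 20 were tested, and 4, 3 and 3 were higher and 6, 3 and 5 lower in the same order of tumours, shares near or below those over all genes (26.9, 27.7 and 27.3% higher; 25.9, 19.8 and 24.4% lower). The genes named here are examples by size of change. Cp, ceruloplasmin, the plasma ferroxidase that works with ferroportin, rose by 0.89, 0.96 and 1.11 (edgeR adjusted p = 0.000436, 0.00289 and 0.00244). Lcn2, lipocalin 2, which binds iron-carrying siderophores, rose by 1.89 and 1.96 in the ALIOS comparisons (edgeR adjusted p = 0.000824 and 0.00222). Aco1, iron regulatory protein 1, fell by 0.64, 0.81 and 0.54 in the spontaneous, ALIOS DEN and control DEN tumours (edgeR adjusted p = 1.8e-06, 8.8e-07 and 0.000174). Steap3, the ferrireductase of endosomes, fell by 0.98, 0.52 and 0.79 (edgeR adjusted p = 2.5e-05, 0.00620 and 0.000643). None of the 20 was called by diet in the livers, where 11.2% of all genes were called.

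Mitochondrial iron genes fell more often than they rose, with 10, 10 and 9 of 21 lower and 2, 1 and 2 higher, where 25.9, 19.8 and 24.4% of all genes were lower and 26.9, 27.7 and 27.3% higher. Their median log2 fold changes were -0.21, -0.23 and -0.17. Fdx1, a ferredoxin, fell by 1.29, 1.16 and 1.08 (edgeR adjusted p = 1.2e-06, 9.4e-05 and 0.000165), and Abcb10, a transporter of the inner membrane, by 1.15, 1.02 and 1.66 (edgeR adjusted p = 8.0e-07, 4.7e-05 and 6.7e-10). Slc25a37, mitoferrin 1, which brings iron into mitochondria, rose by 0.49, 0.38 and 0.68 (edgeR adjusted p = 0.00118, 0.0410 and 0.000821). In the livers Abcb10 was the 1 gene of the 21 called by diet and fell by 0.26, where 11.2% of all genes were called.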

How the data were processed

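Bulk RNA-seq measured gene expression in liver and tumour tissue of C3H/He mice. The authors made stranded mRNA libraries, mapped read pairs of 100 bases to mm10 with STAR and counted reads on exons of Gencode M6 genes with HTSeq. Versions and the strand option are not given in the sources used here. The authors deposited raw counts per gene for 50 libraries, without normalization. Columns were matched to samples by the labels.

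Counts were tested with edgeR 4.0.16 in R 4.3.3: filterByExpr on the groups compared, TMM, glmQLFit and glmQLFTest without covariates, and a call at a Benjamini-Hochberg adjusted p under 0.05 over all genes tested. The study's own tool, DESeq2 1.42.0, was an alternative. SE is the absolute log2 fold change over the root of F. Only the groups compared entered each fit. Log2 CPM used a prior count of 2. Single values were tested with 2-sided permutation tests (100000 resamples, or exact below 10 libraries in a group) in scipy 1.17.1. The code was tested on simulated data. No 2 libraries were alike enough to be 1 library deposited again. Coordinates and exon lengths are from Gencode M21 (GRCm38). Alternatives were another scaling, no filter, 1 fit of all groups, adding T1 and leaving out libraries. For spontaneous tumours against livers, another added T7 and the control diet livers, with diet as a term. The members and lists were chosen with earlier results of these data known. Named were all members, up to 3 called genes of each list and direction by size of change, the genes of the fixed pairs, and the 5 genes most like Hamp. At this depth a gene with few counts, such as Bmp6, carries a large counting error.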

Additional observations from a re-analysis of the deposited data

Results flagged for a closer look

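Groups of 8 and 5 libraries were examined for single libraries lying apart, by the gap to its nearest neighbour over the range of the group. Of 22 groups of values, 2 held one, where chance alone gives about 1.1. Fth1 in ALIOS DEN tumour T24 stood at 12.69 on the log2 CPM scale, and the other 7 tumours between 8.81 and 10.5. T24 also held 0 counts of Hamp2, 3.85 CPM of Hamp, the lowest Tfr2 of the group and 2582 CPM of Afp, the highest of the 26 tumours. Its summed level of 8 stellate cell markers, 932 CPM, was the highest of the group. These markers did not move together in ALIOS DEN tumours against ALIOS livers, with 3 higher and 2 lower. Col1a1 had a log2 fold change of 3.48, with 1 tumour above every ALIOS liver. Lrat had one of -1.79, with all 8 tumours below every ALIOS liver. The hepatocyte marker sum of T24, 82330 CPM, was the lowest, with T23 at 82650 CPM. The part of cell types in T24 was not tested. Slc40a1 in control DEN tumour T20 stood at 6.219 on the log2 CPM scale, and the other 4 tumours lay between 6.425 and 6.506, so the gap was small in size.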

How the results depend on the processing

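Of the log2 fold changes of the members recomputed under another setting, 923 kept their direction and side of the threshold, 8 gained a call, 7 lost one and 32 changed sign. The changes of sign were of differences that were not called, except that of Bmp6 in spontaneous tumours with T1 added. No paired analysis was possible because no replicate number is shared between groups. Leaving out each liver for diet in liver, and each library for spontaneous tumours against livers, was added after seeing the data. Of the ALIOS DEN tumours only T24 was left out.

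By DESeq2, 2 members (Hamp2 and Fth1) were called for diet in liver instead of 0, and 64 genes for DEN against spontaneous tumours, 146 for diet in DEN tumours and 635 for the interaction. With all 6 groups in 1 fit, 623 genes were called for diet in liver, 403 for DEN against spontaneous tumours, 296 for diet in DEN tumours and 220 for the interaction, against 1542, 0, 2 and 354. Without the filter on low counts 1 gene was called for diet in DEN tumours. With 1 library left out the members called for diet in liver ranged from 0 to 2, and the genes called from 949 (without N17) to 2343 (without N13), with 957 without N19, those for diet in DEN tumours from 0 to 14 (without T24) and those for the interaction from 174 (without T17) to 732 (without T24), with 191 without T18 or T20.

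With T1 added, 3 members were called instead of 6 in spontaneous tumours against livers, and the Bmp6 log2 fold change was 0.42. Against DEN tumours the log2 fold changes with T1 were 0.071 for Hamp, 0.098 for Tfr2, 0.042 for Trf, 0.038 for Hfe and -1.04 for Bmp6. With medians the Hamp2 share differed by -22.0 and -12.0 points between DEN tumours and livers on ALIOS and control diet, by -23.3 between DEN and spontaneous tumours and by 10.2 between diets in DEN tumours, none passing. The causes were not tested.

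With 1 library left out, log2 fold changes that changed sign ranged as follows. For diet in liver they were -0.014 to 0.12 for Trf and -0.031 to 0.058 for Ftl1. For DEN tumours against livers on ALIOS, Fth1 was -0.20. Between DEN and spontaneous tumours only T9 and T24 were left out, 1 at a time. The log2 fold changes there were -0.17 to 0.14 for Hamp, -0.022 to 0.096 for Tfr2, -0.14 to 0.71 for Fth1 and -0.014 to 0.061 for Bmp6. For diet in DEN tumours they were -0.12 to 0.035 for Tfr2 and -0.077 to 0.16 for Bmp6. For the interaction they were -0.056 to 0.098 for Tfr2, -0.13 to 0.98 for Fth1, -0.012 to 0.35 for Ftl1 and -0.063 to 0.040 for Hfe.

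Counts of Bmp6, and of Hamp2 in the DEN tumours, were low enough for counting error to matter.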

Other observations

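Tumour T7, the 1 tumour on the control diet without DEN, entered none of the main comparisons. It entered alternative fits only, that of all 6 groups and 1 of spontaneous tumours against livers of both diets. Its Hamp, at 87.7 CPM, and Hamp2, at 18.4 CPM, its Tfr2, at 201 CPM, and its Slc40a1, at 111 CPM, were below the medians of the control diet livers, and its Trf, at 10313 CPM, was above all of them.

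In T1, the library with kidney transcripts, Hamp had 5 counts and Hamp2 4 of its own total. Bmp6 stood at 38.1 CPM of that total, Tfrc at 127 and Fth1 at 1781, and Trf at 5.44. Added to the spontaneous tumours, T1 turned the Bmp6 log2 fold change from -0.68 to 0.42.

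Control diet livers spread widely in Hamp2. N5, N6, N7 and N8 held 2.15, 12.6, 12.1 and 29.6 CPM, and N1, N2, N3, N4 and N9 held 184, 173, 209, 292 and 277 CPM. Hamp in the same 4 low livers was 581, 519, 139.5 and 1130.4 CPM. Substrain, cage and litter are not given in the labels, and their part was not tested.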
